A study of Mus musculus with 9 samples.

Results

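RNA levels of the CREB transcription factors and their coactivators were measured in primary mouse osteoblasts after 4 h with parathyroid hormone peptides. The list held 8 genes: Crem, Creb1 and Atf1, which encode factors that bind DNA, the acetyltransferase genes Crebbp and Ep300, and the coactivator genes Crtc1, Crtc2 and Crtc3. Members were the transcript clusters (groups of probes for one transcript region) with a listed symbol as their only annotated symbol. This gave 7 of the 8 genes, of 22180 genes measured in this way, and each of the 7 had 1 cluster. Both clusters that list Atf1 also list its pseudogene Atf1-ps, so no value was read for Atf1.

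The cultures were grown from calvaria (skull roof bone) of C57BL/6J mice, 7 to 10 days old, and were used at passage 2. Differentiation with ascorbic acid and beta-glycerophosphate began on day 3. From day 10 every group was kept without serum for 24 h, and treatment followed in serum-free medium with albumin. The 3 groups received vehicle, 100 nM human hPTH(1-34), or 1 µM of the bovine amide bPTH(7-34), whose residue 12 is D-tryptophan and residue 34 is tyrosine, for 4 h. Each group had 3 arrays. The series text states that cells were prepared separately for each replicate, but not whether 1 preparation was shared by the treatments, nor how many mice gave 1 preparation. The cultures are mixed primary cells, and the peptide doses differ by design, so a difference between the peptides is not one at matched dose.

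hPTH(1-34) is an agonist of the receptor Pth1r, which couples to the G protein that raises cAMP. cAMP frees the catalytic subunits of protein kinase A, which phosphorylate CREB factors, and CREB phosphorylated in this way recruits the coactivators CBP and p300. The same kinase also blocks the salt-inducible kinases, so that CRTC proteins lose phosphate, enter the nucleus and bind CREB at cAMP response elements (CREs). Most of these steps act on proteins already present. The Crem gene differs, since an internal promoter with CREs drives a short repressor form, ICER, which is known to dampen the cAMP response later. bPTH(7-34) is known as an antagonist of the receptor for the rise of cAMP.

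The deposited values are log2 expression levels made by robust multi-array averaging (RMA). A level of 1.68 served as the limit of background. It is the 95th percentile, over 1088 olfactory receptor genes that osteoblasts are not expected to express, of the mean with vehicle. All 7 members lay above it on each of the 9 arrays. The limit is low: the median level over all clusters was 1.67 to 1.76 on these arrays, so many other clusters lie above it too. Of 9 measured osteoblast markers, Bglap alone lay at or under this limit in all 3 groups, and Col1a1, the main bone collagen, had levels from 12.14 to 12.42. Of 5 osteocyte markers, Dmp1, Sost and Mepe lay at or under the limit in all 3 groups, while Phex and Pdpn did not. Of 5 endothelial markers, Kdr and Vwf lay at or under it in all 3 groups, while Pecam1, Cdh5 and Tek did not. Each of 8 macrophage and osteoclast markers lay above it in at least 1 group, and the sum of their log2 levels was 37.7 to 42.9 with vehicle, 33.0 to 44.2 with hPTH(1-34) and 33.9 to 42.0 with bPTH(7-34). Those ranges overlap. Of 5 measured adipocyte markers, 5 had a positive difference between hPTH(1-34) and vehicle, with a median of 0.383 where all clusters had 0, and 0 passed in limma, with 2 higher at an unadjusted p under 0.05 (9.31% of all clusters in either direction). Their summed log2 levels were 23.4 to 25.8 with vehicle, 25.0 to 27.8 with hPTH(1-34) and 23.6 to 26.3 with bPTH(7-34), and Lep lay at or under the background limit in all groups. Each of 5 chondrocyte and 5 skeletal muscle markers lay above it in at least 1 group, with median differences of 0.07 and 0.02 between hPTH(1-34) and vehicle. The chondrocyte sum was 23.3 to 25.7 with vehicle, 23.1 to 25.8 with hPTH(1-34) and 22.8 to 26.3 with bPTH(7-34). The muscle sum was 10.6 to 14.2 with vehicle, and the arrays of both other groups lay within that range. The part of these other cells in the results below was not tested. In these cultures a change in RNA per cell and a change in the share of a cell type cannot be told apart.

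Crem was the member that rose with hPTH(1-34). Its log2 levels were 2.29, 2.16 and 2.30 with vehicle, 2.74, 3.04 and 2.98 with hPTH(1-34), and 2.07, 2.30 and 2.17 with bPTH(7-34). All 3 hPTH(1-34) arrays lay above all 6 others, while the vehicle and bPTH(7-34) arrays overlapped. Of all clusters, 6.08% had hPTH(1-34) arrays above vehicle and 5.99% above bPTH(7-34). The rise of Crem over vehicle was 0.67 ± 0.11 on the log2 scale (standard error from limma, n = 3 per group), or 1.59-fold, with a 95% interval of 0.42 to 0.92 and adjusted p = 0.0442. Crem ranked 81 of 23521 tested clusters by p. Over bPTH(7-34) it was higher by 0.74 ± 0.11 (1.67-fold, interval 0.49 to 0.99, adjusted p = 0.0297 in limma), at rank 56. Between bPTH(7-34) and vehicle the difference was -0.07 ± 0.11, and the interval of -0.32 to 0.18 holds 0.

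Set against all clusters, 1 of 7 members passed as higher with hPTH(1-34) than with vehicle, where 0.310% of the 23521 tested clusters did. Counting both directions, 0.451% of the clusters passed, and 0 members were called lower. Between hPTH(1-34) and bPTH(7-34), 1 member passed as higher, and 0.332% of the clusters did (0.463% in either direction). Between bPTH(7-34) and vehicle 0 members and 0 clusters passed in limma (0% called), and at an unadjusted p under 0.05 there were 0 members and 3.32% of the clusters. The members and this comparison were chosen with results of these data known, so the single call is a description of Crem and no support for the list. The moderated F-test of limma over the 3 groups gave adjusted p = 0.0444 for Crem and from 0.768 to 0.956 for the other 6, with 0.383% of clusters past 0.05.

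The size of the Crem rise held better than its call. Subtracting vehicle from hPTH(1-34) arrays of the same number gave 0.45, 0.88 and 0.68. In limma the rise was 0.61 to 0.76 with any 1 vehicle or hPTH(1-34) array left out. Leaving out a bPTH(7-34) array cannot move the rise, only its error and its call. Of the 9 fits with 1 array left out, the rise passed only without hPTH(1-34) array 1 (adjusted p = 0.0165). The other 8 fits gave adjusted p from 0.0718 (without bPTH(7-34) array 2) to 0.201 (without vehicle array 2). The call was also lost with all 41345 clusters tested (0.126), with the 6 arrays of the comparison alone (0.146), and with a trended and robust variance model (0.0581), all adjusted p values of limma. The difference of Crem from bPTH(7-34) was 0.68 to 0.83 with any 1 hPTH(1-34) or bPTH(7-34) array left out. A vehicle array left out cannot move it. This difference likewise passed only without hPTH(1-34) array 1 (adjusted p = 0.0109 in limma). The other 8 fits gave 0.0510 (without vehicle array 1) to 0.146 (without hPTH(1-34) array 2). The calls over all 23521 clusters moved as well. Between hPTH(1-34) and vehicle they ran from 0 (without vehicle array 2 or 3) to 259 (without hPTH(1-34) array 1). With all 9 arrays 106 clusters passed, and with the 6 arrays alone 0. With vehicle the mean level of Crem was 2.25, close to the background limit of 1.68. The table holds 1 cluster for Crem, so full-length Crem and the short ICER forms were not told apart.

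**Figure D1:**
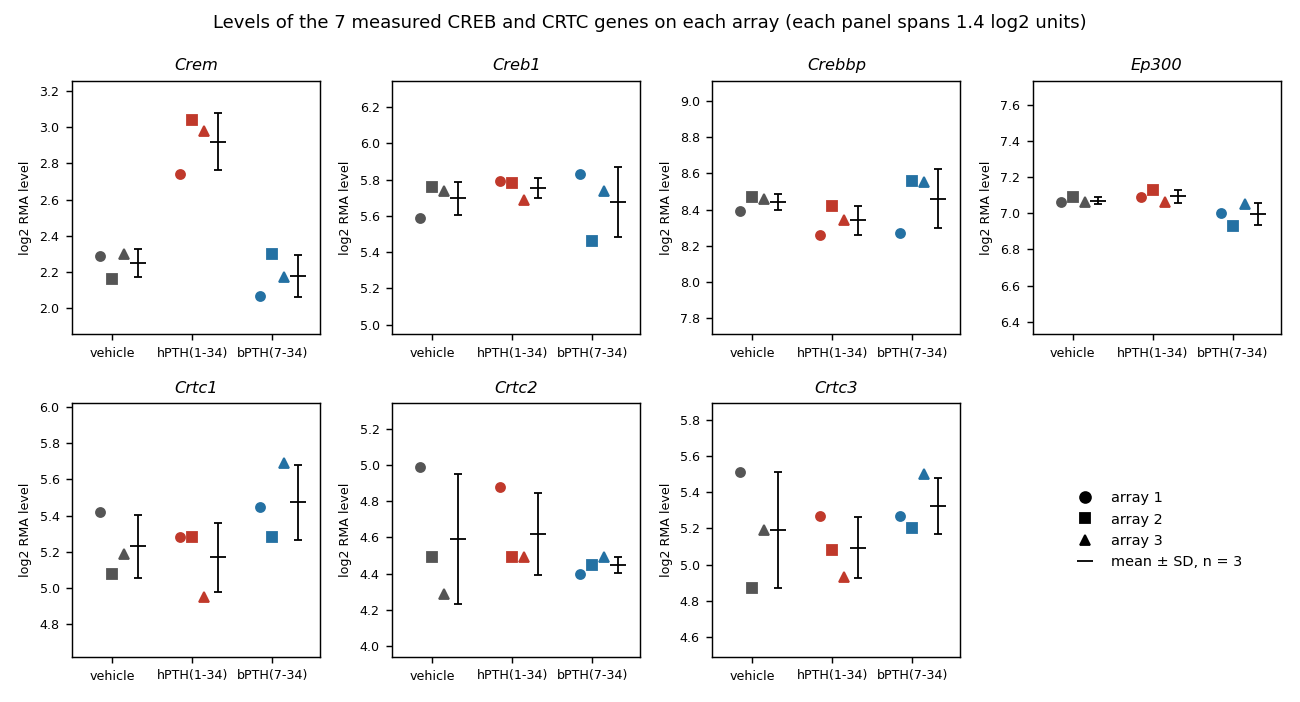
Log2 RMA level (vertical axis) of the 7 measured genes on each array of vehicle, hPTH(1-34) and bPTH(7-34), with symbols for arrays 1 to 3 and the group mean ± SD beside them (n = 3). The hPTH(1-34) arrays of Crem, from 2.74 to 3.04, lie above the other 6, while the groups of Creb1, Crebbp, Crtc1, Crtc2 and Crtc3 overlap.

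Creb1, which encodes the constitutive factor CREB that protein kinase A phosphorylates, did not pass in any comparison. Its levels were 5.59, 5.76 and 5.74 with vehicle, 5.79, 5.78 and 5.69 with hPTH(1-34), and 5.83, 5.46 and 5.74 with bPTH(7-34). The groups overlapped, and array 2 of bPTH(7-34) was the lowest of the 9. The difference between hPTH(1-34) and vehicle was 0.06 ± 0.11 (interval -0.195 to 0.31, adjusted p = 0.920 in limma), which places the level with hPTH(1-34) between 0.874 and 1.24 times that with vehicle. For bPTH(7-34) the difference from vehicle was -0.02 ± 0.11 (interval -0.27 to 0.23).

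The promoter window of Creb1 is shown as the example of a CREB gene whose level did not pass. Windows reach from 250 bases before to 50 after a gene's start and come from RefSeq (GRCm38.p6). The full CRE, TGACGTCA, and its shorter core TGACG, or CGTCA on the other strand, were searched, and each full element holds both cores. Capitals mark such matches.
Creb1 (chr1:64532554-64532853, plus strand): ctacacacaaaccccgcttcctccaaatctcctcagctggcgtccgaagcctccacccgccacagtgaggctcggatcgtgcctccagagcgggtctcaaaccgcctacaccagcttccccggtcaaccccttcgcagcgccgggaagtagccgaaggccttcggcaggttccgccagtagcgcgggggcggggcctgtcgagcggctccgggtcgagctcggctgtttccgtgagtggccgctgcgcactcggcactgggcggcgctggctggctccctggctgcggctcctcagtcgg
The window of Creb1 holds no match, and neither do those of Crebbp, Ep300, Crtc1 and Crtc3. The window of Atf1 holds 1 core. The table has no window for Crem and Crtc2. Of all 32851 windows, 1.79% hold the full element and 20.8% a core. A match is a description of letters, and no match says only that they are absent from this window.

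Crebbp and Ep300 encode CBP and p300, related histone acetyltransferases that bind phosphorylated CREB. Crebbp had levels of 8.39, 8.47 and 8.46 with vehicle, 8.26, 8.42 and 8.34 with hPTH(1-34), and 8.27, 8.56 and 8.55 with bPTH(7-34). The groups overlapped, with the number 1 arrays of both peptides lowest. The difference between hPTH(1-34) and vehicle was -0.10 ± 0.10 (interval -0.33 to 0.13, adjusted p = 0.817 in limma).

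Ep300 varied least among the members, with a range of 0.20 over the 9 arrays. It measured 7.06, 7.09 and 7.06 with vehicle, 7.09, 7.13 and 7.06 with hPTH(1-34), and 7.00, 6.93 and 7.05 with bPTH(7-34). Its bPTH(7-34) arrays lay below all 6 others, by a narrow margin. Such a separation from vehicle, towards lower levels, was seen for 2.39% of all clusters, and the one between hPTH(1-34) and bPTH(7-34), towards higher levels, for 5.99%. The differences were small: -0.08 ± 0.08 for bPTH(7-34) minus vehicle (interval -0.25 to 0.10, adjusted p = 0.999 in limma), and 0.02 ± 0.08 for hPTH(1-34) minus vehicle (interval -0.15 to 0.20). These intervals limit the level of Ep300 to between 0.899 and 1.15 times vehicle with hPTH(1-34) and between 0.839 and 1.07 times with bPTH(7-34).

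The CRTC genes encode the coactivators that salt-inducible kinases hold in the cytoplasm. None passed in any comparison, and their levels spread more than those of Creb1, Crebbp and Ep300, with ranges of 0.74, 0.70 and 0.64 over the 9 arrays for Crtc1, Crtc2 and Crtc3. Crtc1 had levels of 5.42, 5.08 and 5.19 with vehicle, 5.28, 5.28 and 4.95 with hPTH(1-34), and 5.45, 5.28 and 5.69 with bPTH(7-34). The groups overlapped, with the highest value on bPTH(7-34) array 3. Its difference was -0.06 ± 0.15 between hPTH(1-34) and vehicle, 0.24 ± 0.15 between bPTH(7-34) and vehicle (interval -0.08 to 0.57), and -0.30 ± 0.15 between hPTH(1-34) and bPTH(7-34) (interval -0.63 to 0.02, adjusted p = 0.568 in limma). Among the 6 members other than Crem, this last difference had the smallest unadjusted p, at 0.0659 in limma.

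Crtc2, the CRTC best known from the cAMP response of the liver, had levels of 4.99, 4.49 and 4.29 with vehicle, 4.88, 4.49 and 4.49 with hPTH(1-34), and 4.40, 4.45 and 4.49 with bPTH(7-34). Array 1 of vehicle and array 1 of hPTH(1-34) stood above the other 7. The difference was 0.03 ± 0.18 between hPTH(1-34) and vehicle (interval -0.37 to 0.43) and -0.14 ± 0.18 between bPTH(7-34) and vehicle (interval -0.55 to 0.26).

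Crtc3 had levels of 5.51, 4.87 and 5.19 with vehicle, 5.27, 5.08 and 4.93 with hPTH(1-34), and 5.27, 5.20 and 5.50 with bPTH(7-34). Vehicle array 1 and bPTH(7-34) array 3 were the highest, and vehicle array 2 was the lowest. The difference was -0.10 ± 0.17 between hPTH(1-34) and vehicle (interval -0.47 to 0.28) and 0.13 ± 0.17 between bPTH(7-34) and vehicle (interval -0.24 to 0.51). For the 6 members other than Crem, adjusted p in limma ran from 0.817 to 0.979 between hPTH(1-34) and vehicle. No interval among them, in any of the 3 comparisons, reached beyond 0.631 on the log2 scale in either direction.

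**Figure D2:**
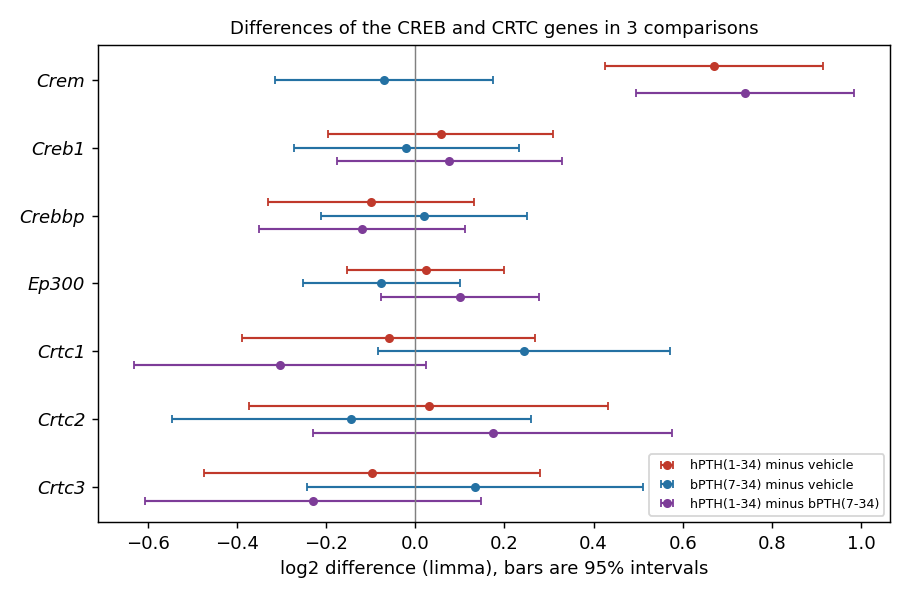
Log2 difference (horizontal axis, limma estimate with 95% interval, 3 arrays per group) of each gene in the 3 comparisons. The intervals of Crem for hPTH(1-34), 0.42 to 0.92 against vehicle and 0.49 to 0.99 against bPTH(7-34), lie clear of 0, and every other interval holds 0.

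Over the 7 members, 4 differences between hPTH(1-34) and vehicle were positive and 3 negative, with a median of 0.023 against 0 over all clusters. For bPTH(7-34) minus vehicle, 3 were positive and 4 negative, with a median of -0.02 against 0.003. Both comparisons use the same vehicle arrays. The levels of different genes come from different probes and were not set against each other.

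The genes around CREB were read from 4 lists. Of 26 other genes of the CREB/ATF, C/EBP and related bZIP families, all measured, 0 passed between hPTH(1-34) and vehicle in limma, and 6 had an unadjusted p under 0.05 (4 higher, 2 lower), where 9.31% of all clusters did. The median difference was 0.003. Nfil3, a bZIP repressor, had levels of 5.35, 5.47 and 5.47 with vehicle, 5.75, 6.20 and 6.06 with hPTH(1-34), and 4.87, 5.33 and 4.84 with bPTH(7-34). The 3 groups did not overlap: hPTH(1-34) was highest and bPTH(7-34) lowest, the latter by a narrow margin (5.33 against 5.35). The difference of bPTH(7-34) from vehicle was -0.42 ± 0.16 (adjusted p = 0.999 in limma). Of all clusters, 6.08% had hPTH(1-34) arrays above vehicle and 5.99% above bPTH(7-34), and 2.39% had bPTH(7-34) arrays below vehicle. Nfil3 was higher with hPTH(1-34) than with bPTH(7-34) by 0.99 ± 0.16 (adjusted p = 0.0376 in limma), the single call of this list in that comparison, while its difference of 0.57 ± 0.16 from vehicle did not pass (adjusted p = 0.234). Without single arrays the call of Nfil3 held only without hPTH(1-34) array 1 (adjusted p from 0.0168 to 0.156 over the 9 fits). Cebpb, a factor of fat and bone cell differentiation, gave 0.43 ± 0.14 over vehicle (adjusted p = 0.347), and Creb3l2, a membrane-bound factor of the secretory pathway, 0.61 ± 0.20 (adjusted p = 0.360).

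Of 32 listed kinases, kinase inhibitors and phosphatases that act on CREB or CRTC proteins, 27 were measured and 0 passed in limma in any comparison. At an unadjusted p under 0.05, 7 were higher and 0 lower with hPTH(1-34) than with vehicle, where 9.31% of all clusters differed in either direction. The median difference was 0.037. Camk4, a calcium-dependent kinase that phosphorylates CREB, had levels of 4.17, 4.50 and 4.26 with vehicle, 5.18, 6.44 and 6.21 with hPTH(1-34), and 3.98, 4.35 and 4.51 with bPTH(7-34). The hPTH(1-34) arrays lay above all others, and array 1 was the lowest of them. The difference from vehicle, 1.63 ± 0.29, missed the threshold (adjusted p = 0.0601 in limma). Sik3, one of the salt-inducible kinases that retain CRTC proteins, measured 5.87, 5.60 and 5.44 with vehicle, 6.33, 6.5 and 6.46 with hPTH(1-34), and 5.41, 5.87 and 5.53 with bPTH(7-34). Its groups separated in the same way, and the difference of 0.79 ± 0.15 missed the threshold too (adjusted p = 0.0682). Ppp2ca, a catalytic subunit of protein phosphatase PP2A, gave 0.40 ± 0.11 (adjusted p = 0.22). Separations of hPTH(1-34) above vehicle were seen for 6.08% of all clusters.

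Of 29 acetyltransferases, coactivators and CREB partners, all measured, 0 passed in limma in any comparison. Between hPTH(1-34) and vehicle the median difference was 0.007, with 2 higher and 3 lower at an unadjusted p under 0.05 (9.31% of all clusters in either direction). Kat2b, the acetyltransferase PCAF that works with CBP and p300, gave -0.64 ± 0.20 (adjusted p = 0.326), with levels of 5.41, 4.55 and 4.67 with hPTH(1-34) against 5.63, 5.47 and 5.44 with vehicle. Cited1, which encodes a CBP-binding protein, gave 0.65 ± 0.21 (adjusted p = 0.349). Fhl5, which encodes a LIM-domain coactivator of CREM in the testis, had group means under the background limit, so its difference of -0.39 ± 0.12 (adjusted p = 0.331) is not read as a change.

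Genes known as CRE targets rose in part. Of 40 listed genes 37 were measured, and 7 rose, 0 fell and 30 did not pass between hPTH(1-34) and vehicle, where 0.310% of all clusters passed as higher. The median difference was 0.203 where all clusters had 0. Between bPTH(7-34) and vehicle 0 of 37 passed in limma, 1 had an unadjusted p under 0.05 (3.32% of all clusters), and the median was -0.053. Between hPTH(1-34) and bPTH(7-34) 8 were higher and 0 lower, where 0.332% of all clusters passed as higher, with Nr4a1 and Nfil3 in this count and Tnfsf11 (adjusted p = 0.0674) not in it. The list was drawn up with earlier results of these data known, so its counts are a description. The 7 rises depended on single arrays. Without vehicle array 1, 2 and 3 limma called 4, 0 and 0 rises. Without hPTH(1-34) array 1, 2 and 3 it called 7, 1 and 1, and without bPTH(7-34) array 1, 2 and 3 it called 3, 4 and 5. The median difference ran from 0.127 to 0.297 over these fits, and a bPTH(7-34) array left out cannot move it. The 8 calls against bPTH(7-34) became 5, 3 and 4, then 9, 1 and 1, then 3, 1 and 1 in the same order, and with 6 arrays alone 0 passed in either comparison and with all clusters 1 did, Nr4a3. Over all 23521 clusters the same fits against vehicle called 72, 0 and 0, then 259, 3 and 2, then 51, 44 and 67. The full fit called 106. Against bPTH(7-34) they called 70, 35 and 40, then 262, 3 and 3, then 48, 2 and 3, where the full fit called 109. With 6 arrays alone 0 of these clusters passed in either comparison.

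Nr4a3, an orphan nuclear receptor gene, had levels of 2.18, 2.27 and 2.05 with vehicle, 4.49, 4.83 and 5.56 with hPTH(1-34), and 1.94, 2.01 and 1.93 with bPTH(7-34). Its relative Nr4a2 measured 4.72, 4.15 and 4.31, then 5.85, 6.45 and 6.31, then 4.13, 4.58 and 4.06 in the same order of groups. The hPTH(1-34) arrays of both lay above all others, a separation from vehicle seen for 6.08% of all clusters. The rise over vehicle was 2.79 ± 0.23 for Nr4a3 (adjusted p = 0.00556) and 1.81 ± 0.21 for Nr4a2 (adjusted p = 0.0149), both from limma. Pde10a, a phosphodiesterase that degrades cyclic nucleotides, rose by 1.09 ± 0.15 (adjusted p = 0.0244). The other 4 that rose were named after their values were seen: Rgs2, which shortens G protein signals (1.36 ± 0.21), the osteoclast factor gene Tnfsf11 (2.57 ± 0.43), the activin subunit gene Inhba (1.25 ± 0.20) and Odc1, an enzyme of polyamine synthesis (1.41 ± 0.24). Their adjusted p in limma ran from 0.0377 to 0.0470. On the same log2 scale Crem rose by 0.67, less than any of these 7. The mean level with vehicle was close to the background limit for Crem (2.25) and for Nr4a3 (2.17). Fos, an early CRE target, gave -0.03 ± 0.10, and Sik1, a kinase gene that is also a CRE target and is counted in both lists, gave -0.05 ± 0.25. Fos and Sik1 were chosen after their values were seen, and neither passed.

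The windows of Nr4a2, Nr4a3 and Rgs2 are shown because these targets rose with hPTH(1-34) and their windows hold more than 1 CRE core. Capitals again mark TGACG or CGTCA.
Nr4a2 (chr2:57123954-57124253, minus strand): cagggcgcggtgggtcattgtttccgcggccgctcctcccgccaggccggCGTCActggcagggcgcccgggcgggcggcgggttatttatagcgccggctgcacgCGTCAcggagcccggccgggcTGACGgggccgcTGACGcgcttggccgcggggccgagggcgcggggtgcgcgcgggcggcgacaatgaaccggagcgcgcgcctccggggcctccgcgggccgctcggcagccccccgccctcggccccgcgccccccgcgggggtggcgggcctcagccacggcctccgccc
Nr4a3 (chr4:48045055-48045354, plus strand): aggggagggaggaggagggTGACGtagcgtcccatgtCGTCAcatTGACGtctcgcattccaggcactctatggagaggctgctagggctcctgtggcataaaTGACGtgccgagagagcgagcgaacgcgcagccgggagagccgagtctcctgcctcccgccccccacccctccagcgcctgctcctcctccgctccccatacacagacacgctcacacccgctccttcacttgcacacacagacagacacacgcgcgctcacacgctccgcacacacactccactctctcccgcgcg
Rgs2 (chr1:144004100-144004399, minus strand): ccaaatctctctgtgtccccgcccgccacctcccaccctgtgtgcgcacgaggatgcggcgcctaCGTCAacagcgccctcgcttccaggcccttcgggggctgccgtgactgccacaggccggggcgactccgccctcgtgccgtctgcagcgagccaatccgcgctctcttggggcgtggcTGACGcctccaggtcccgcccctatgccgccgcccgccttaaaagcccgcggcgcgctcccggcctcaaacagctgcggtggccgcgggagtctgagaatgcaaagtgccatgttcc
Nr4a2 and Nr4a3 each hold 4 cores and Rgs2 holds 2, and none of them has the full element. The window of Odc1 holds 1 core, and those of Pde10a, Tnfsf11 and Inhba hold none, so 4 of the 7 genes that rose had a core. Of the 30 targets that did not pass, 23 have a window, 19 of these hold a core and 2, Dusp1 and Sst, hold the full element. Among these 30, Nr4a1 holds 4 cores, as many as Nr4a2 and Nr4a3, and Fos holds 2, as many as Rgs2. By gene, 23.0% of all 27025 genes with a window have a core and 2.03% the full element. The list was made of genes known for such elements, so these shares describe the list and say nothing of what was bound.

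**Figure D3:**
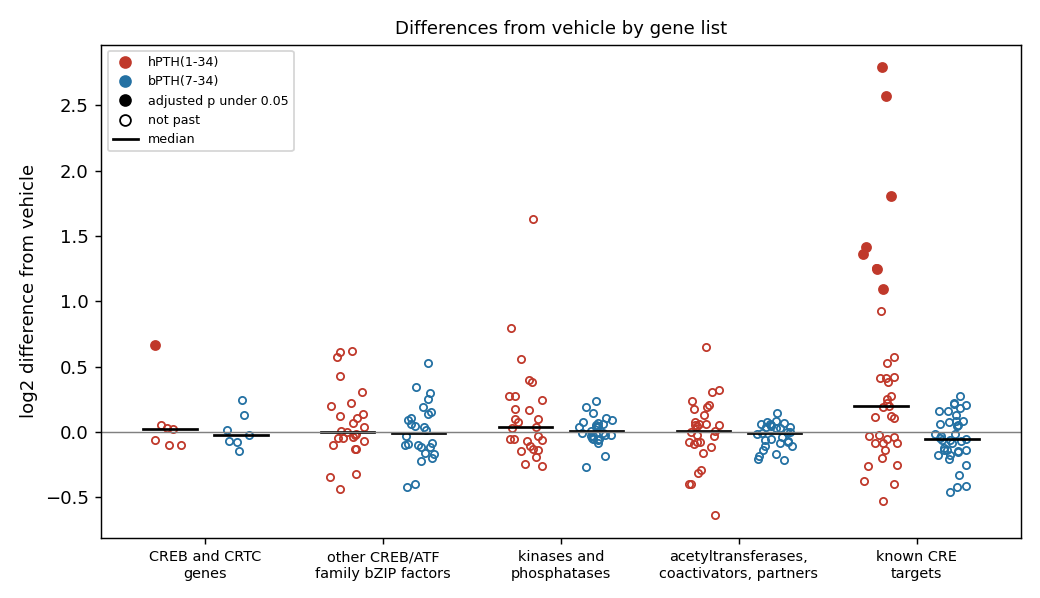
Log2 difference from vehicle (vertical axis) of each gene in the CREB and CRTC list and in the 4 further lists, with hPTH(1-34) in red and bPTH(7-34) in blue. Filled points passed an adjusted p of 0.05 in limma, and black lines are medians. Filled points are Crem and 7 known CRE targets, all with hPTH(1-34).

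The genes whose pattern over the 9 arrays was most like that of Crem were Nr4a2 (Pearson r = 0.988), Uck2, a nucleoside kinase gene (0.982), Hspa8, a constitutive heat shock protein gene (0.982), Ptpn2, a tyrosine phosphatase gene (0.980), and Cbarp, a regulator of calcium channels (0.979). These correlations include the treatment difference that all points share, and 201 genes reached r over 0.9. Uck2, Ptpn2 and Cbarp rose over vehicle by 0.99 ± 0.15, 0.95 ± 0.12 and 1.61 ± 0.27 (adjusted p = 0.0338, 0.0204 and 0.0452 in limma). With 1 array left out at a time, the calls of Uck2 and Cbarp held only without hPTH(1-34) array 1, and that of Ptpn2 in 5 of 9 fits, those without vehicle array 1, hPTH(1-34) array 1 or any bPTH(7-34) array. Hspa8 gave 0.24 ± 0.08 (adjusted p = 0.402), with levels of 10.52, 10.68 and 10.69 with hPTH(1-34) above all 6 others. On hPTH(1-34) array 1 Crem and these 5 genes were each lower than on arrays 2 and 3 of that group. The 5 genes were chosen for a pattern like that of Crem on these same arrays, so the choice favours this shared trait. For Creb1 the closest genes were Nudcd1 (r = 0.961), Ifnb1 (0.943) and Dnase1 (0.918), and 6 genes reached r over 0.9. Ifnb1 lay under the background limit, and the level of Dnase1 lay near it, so their likeness rests on values near background.

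**Figure D4:**
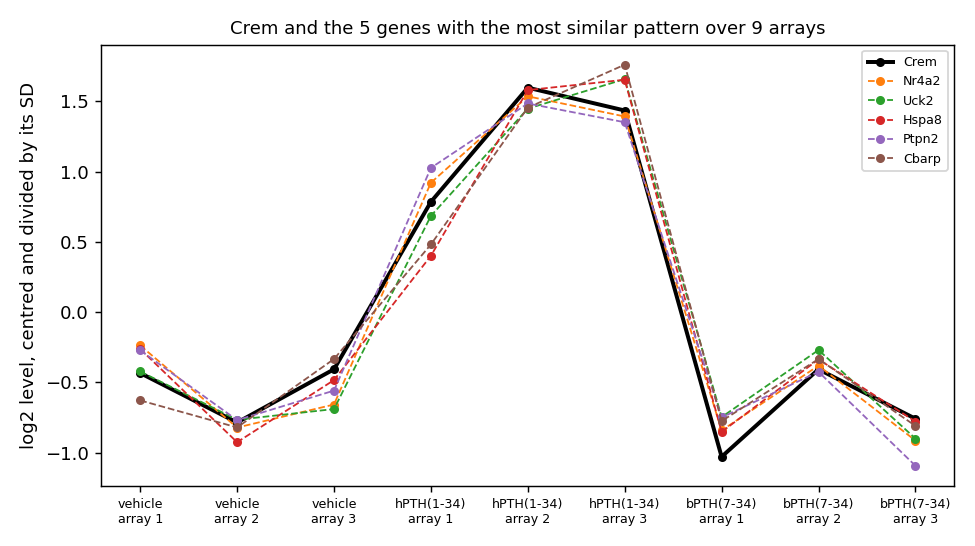
Log2 level of Crem and of the 5 genes with the most similar pattern, centred and divided by the SD of each gene over 9 arrays (vertical axis), for each array (horizontal axis). All 6 genes are highest on the 3 hPTH(1-34) arrays, with array 1 the lowest of these. The 5 genes were chosen for this likeness to Crem.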

How the data were processed

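RNA of 9 samples was hybridised to Affymetrix Mouse Gene 2.0 ST arrays, 100 ng each. The deposited log2 values are RMA levels per transcript cluster, made by the authors with Affymetrix Expression Console and RMA, per the submitters' processing notes (versions and genome build not given in the sources used here). Of 41345 clusters, 23521 had 1 annotated symbol, 1814 several and 16010 none. A gene was read from its cluster with the highest mean. All 23521 clusters were fitted with limma 3.58.1 in R 4.3.3 (lmFit, eBayes, group as the only term, all 9 arrays, two-sided tests). Adjustment followed Benjamini-Hochberg for each comparison separately, with a threshold of 0.05. Standard errors and 95% intervals come from this fit (6 residual and 3.20 prior degrees of freedom). Errors beside the plotted means are SDs.

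Members, lists and tests were chosen with earlier results of these data known. The named genes are all members, the 3 smallest p of each list for hPTH(1-34) against vehicle, and the genes with the highest correlation with Crem (5) and Creb1 (3), passing over predicted and small RNA genes. Arrays of one number in different groups had deviations that correlated above 0.1 in 8 of 9 pairs, with r from 0.0696 to 0.6014. Pairs of different numbers had r from -0.5847 to 0.2368 (both over clusters averaging at least 5 on the log2 scale). A pairing was to be taken only if all 9 pairs exceeded 0.1, so the main fit left the number out. Whether arrays of one number share a preparation was not tested. Where nothing says that replicates are separate animals, p-values measure the spread between these samples. Arrays have no read depth, and their number limits the precision. The fit was tested on 20 simulated sets, where 75.7% of log2 changes of 1 and 24.6% of those of 0.5 were recovered for hPTH(1-34) minus vehicle over 23521 clusters. Of the calls in these sets, 5.77% were false. The simulated arrays had independent errors, while the deviations of the real arrays were correlated, so these shares may differ in the data. Alternatives were the replicate block, other sets of clusters, other normalisations, a trended and robust model, 6 arrays alone and each array left out. Plots used matplotlib 3.10.9 in Python 3.11.15.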

Additional observations from a re-analysis of the deposited data

How the results depend on the processing

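For Crem the rise with hPTH(1-34) over vehicle ran from 0.61 to 0.76 in the 16 alternatives that tested it. Its adjusted p in limma ran from 0.0165 to 0.201, passing in 4. Only another normalisation, or leaving out a vehicle or hPTH(1-34) array, could change the size of the rise. The other alternatives keep the same group means, so there the rise stayed at 0.67 by construction. It was 0.67 and missed the threshold with the replicate block (adjusted p = 0.0550), with all clusters (0.126), with the trended and robust variance model (0.0581) and with only the 6 arrays of the comparison (0.146), so that 0 members passed there. The cause was not tested. A fit of all clusters adjusts over more tests, and the 6 arrays leave fewer samples. With all clusters the unadjusted p of Crem in limma moved too, to 0.000271 from 0.000152, and these parts were not separated. With clusters averaging at least 3 or at least 5 on the log2 scale, 0 members passed in any comparison because Crem, with a mean of 2.45, was left out of the test. Without 1 array each, 0 to 1 members passed between hPTH(1-34) and vehicle. The Crem rise was 0.61 to 0.76 without 1 vehicle or hPTH(1-34) array.

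Between hPTH(1-34) and bPTH(7-34), the difference of Crem was 0.68 to 0.83 over 16 alternatives. Its size could change only with another normalisation or without an hPTH(1-34) or bPTH(7-34) array. The difference passed in 6 alternatives, among them the replicate block (0.74, adjusted p = 0.0457 in limma). 0 members passed with all clusters or with only the 6 arrays of the comparison, and 0 to 1 without 1 array each. Apart from Crem between hPTH(1-34) and vehicle, the replicate block changed no call among the members. The numbers pair no arrays by the labels, and 8 of 9 pairs correlated above 0.1. The fit with this block called 112 clusters between hPTH(1-34) and vehicle, against 106 without it. Among the CRE targets it called 5 rises in place of 7, and 6 against bPTH(7-34) in place of 8.

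Small differences changed sign with single arrays, and none of these passed. Without 1 array each, hPTH(1-34) minus vehicle ran from -0.135 to 0.05 for Crtc1, from -0.12 to 0.23 for Crtc2 (and was -0.013 after quantile normalisation) and from -0.257 to 0.063 for Crtc3. bPTH(7-34) minus vehicle ran from -0.097 to 0.088 for Creb1, from -0.03 to 0.115 for Crebbp, from -0.293 to 0.057 for Crtc2 and from -0.027 to 0.293 for Crtc3. hPTH(1-34) minus bPTH(7-34) ran from -0.032 to 0.153 for Creb1. Each member has a single cluster, so reading another cluster of the gene was not run. The number of arrays and, for Crem, signal close to background limit these results.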
